A study of Mus musculus with 6 samples.

Results

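The initiation and elongation factors of cytosolic protein synthesis were examined as a group of 65 genes, among 47729 genes in the deposited table. The members were all genes whose name begins with Eif or Eef and a digit. They comprised 56 genes named Eif, for initiation factors, and 9 named Eef, for elongation factors, with 357 listed transcripts. The names also cover regulators such as kinases and a methyltransferase, and Eif2c5, which is annotated as a long non-coding RNA. Another 7 pseudogene names carrying "-ps" were left out. The rule used names and no measured value. Of the 65 members, 62 had a mean of at least 1 FPKM over the libraries and were tested. FPKM corrects the fragments of a gene for transcript length and for the size of the library, so levels of different genes can be set side by side.

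The study asked how loss of glycogen synthase kinase 3β (GSK3β) alters ribosome-associated RNA in prefrontal neurons that carry the dopamine D2 receptor (mPFC, medial prefrontal cortex). All mice were C57BL/6 males of 2.5 to 3 months and carried D2Cre, a bacterial artificial chromosome transgene, together with LSL-Flag-Cas9 and RiboTag, so that cells with Cre made both Cas9 and a tagged Rpl22 subunit of the ribosome. The Ctrl group (3 libraries) received AAV GFP and the Gsk3sKO in mPFC D2 group (3 libraries, Gsk3sKO below) received AAV Gsk3sgRNA/GFP, and the tissue was taken 3 weeks later. Immunoprecipitation of the tagged ribosomes gave the RNA for stranded libraries. The labels do not say whether each library came from a separate animal or from a pool, so p-values measure the spread between these samples, which may be technical. A fall in signal could reflect fewer cells of a type or less RNA per cell, and these cannot be told apart in bulk RNA.

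Translation begins when eIF2 delivers the initiator tRNA to the small ribosomal subunit, eIF3 holds the complex together, and the eIF4F complex (the cap-binding protein eIF4E, the scaffold eIF4G and the helicase eIF4A) recruits the mRNA. The guanine nucleotide exchange factor eIF2B recharges eIF2, stress kinases restrain that step by phosphorylating eIF2, and 4E-binding proteins (4E-BPs) restrain eIF4E. In elongation eEF1A brings aminoacyl-tRNA and eEF2 moves the ribosome along. GSK3 is known to phosphorylate the epsilon subunit of eIF2B, which places this machinery among its textbook targets at the level of protein.

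From the steps between low FPKM values the libraries were placed at about 23.5 to 45.2 M reads. This figure is rough, since read counts were not used here and the steps were poorly resolved. Only 24.2% to 37.7% of the low values in a library lay within 0.05 of a whole number of steps. Gsk3b itself was at 35.6, 53.8 and 56.5 FPKM in Ctrl against 36.9, 37.0 and 33.6 FPKM in Gsk3sKO, a log2 fold change of -0.40 (SE 0.19, adjusted p = 0.773, limma) that did not reach an unadjusted p under 0.05. Small insertions or deletions made by Cas9 need not lower the RNA, and their part in the Gsk3b value was not tested. Drd2, which defines the labelled cell type, ranged from 1.58 to 14.1 FPKM in Ctrl and from 5.96 to 8.32 FPKM in Gsk3sKO, while the summed excitatory markers were at 809 to 1012 FPKM over all libraries. The summed inhibitory markers were at 168 to 342 FPKM in Ctrl and 246 to 278 FPKM in Gsk3sKO. Summed markers of neurons in general were at 1725 to 1877 and 1725 to 1936 FPKM. Among the other cell types, 2 of 4 oligodendrocyte markers and 1 of 4 microglial markers were lower in Gsk3sKO at an unadjusted p under 0.05, and Mog was listed at 0 in Gsk3sKO 2 and 3. The summed oligodendrocyte markers spanned 87.1 to 139 FPKM in Ctrl and 93.3 to 130.3 FPKM in Gsk3sKO, and the summed microglial markers 8.28 to 15.1 and 7.38 to 12.1 FPKM. No marker of astrocytes (summed level 44.3 to 54.0 FPKM in Ctrl and 39.7 to 56.8 FPKM in Gsk3sKO), endothelial cells (at most 29.5 and 28.1 FPKM) or red blood cells (26.4 to 67.2 and 31.3 to 49.8 FPKM) passed that threshold. The part of these cells in the results for the translation factors was not tested.

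2 stretches of sequence carry the transcript-level results given further on, and both come from the GENCODE M21 transcripts of GRCm38. The first is exon 4 of the full-length Eif4a3 transcript (chromosome 11, 119295473 to 119295535, minus strand, 63 coding bases in capitals), printed with 30 transcript bases on each side. The short Eif4a3 transcript joins the flanks directly and lacks the capitals. The second is exon 1 of a non-coding Eif4g2 transcript (chromosome 7, 111075949 to 111076209, minus strand, 261 bases), in which the capitals mark the 150 bases shared with the annotated small nucleolar RNA (snoRNA) gene Gm23262.
Eif4a3 exon 4: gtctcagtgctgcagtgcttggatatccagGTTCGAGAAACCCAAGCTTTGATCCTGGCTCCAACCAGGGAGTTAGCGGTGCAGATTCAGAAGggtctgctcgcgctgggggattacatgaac
Eif4g2 exon 1: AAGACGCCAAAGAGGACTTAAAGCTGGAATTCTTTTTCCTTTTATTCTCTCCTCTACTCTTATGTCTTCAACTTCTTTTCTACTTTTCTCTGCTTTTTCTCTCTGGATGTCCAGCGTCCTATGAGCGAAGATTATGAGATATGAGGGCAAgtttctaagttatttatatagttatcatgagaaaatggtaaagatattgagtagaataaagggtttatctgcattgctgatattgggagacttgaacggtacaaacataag

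The translation factors were abundant and differed in level by more than 2 orders of magnitude. Eef1a2, the eEF1A form of neurons and muscle, led with a mean of 667 FPKM and ranked 32 among all genes. Eef1a1, the widely expressed form, followed at 395 FPKM and Eef2, the translocase, at 245 FPKM. The next 3 were Eif4g2 at 236 FPKM, the helicase gene Eif4a2 at 192 FPKM and Eif3c, a core subunit of eIF3, at 149 FPKM. Most of the Eif4g2 total outside Ctrl 1 was listed on a non-coding transcript, described below. Over protein-coding transcripts alone the Eif4g2 mean was 81.4 FPKM in Ctrl and 85.9 FPKM in Gsk3sKO. That is below Eif4a2 (174 and 177 FPKM) and Eif3c (144 and 146 FPKM) on the same scale. At the low end, Eif4ebp3 was listed at 1.24 FPKM in Ctrl 1 and at 0 in the other libraries, and Eif4e1b and Eif2c5 were listed at 0 in all 6. Summed over members, the eEF1 genes made up 30.8% to 33.6% of the FPKM of the group in each library, the eIF3 subunits 19.7% to 24.4% and the eIF4F genes with the 4E-BPs 19.7% to 24.3%. The last share includes the non-coding Eif4g2 transcript and was lowest in Ctrl 1, where that transcript was listed at 0.

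**Figure D1:**
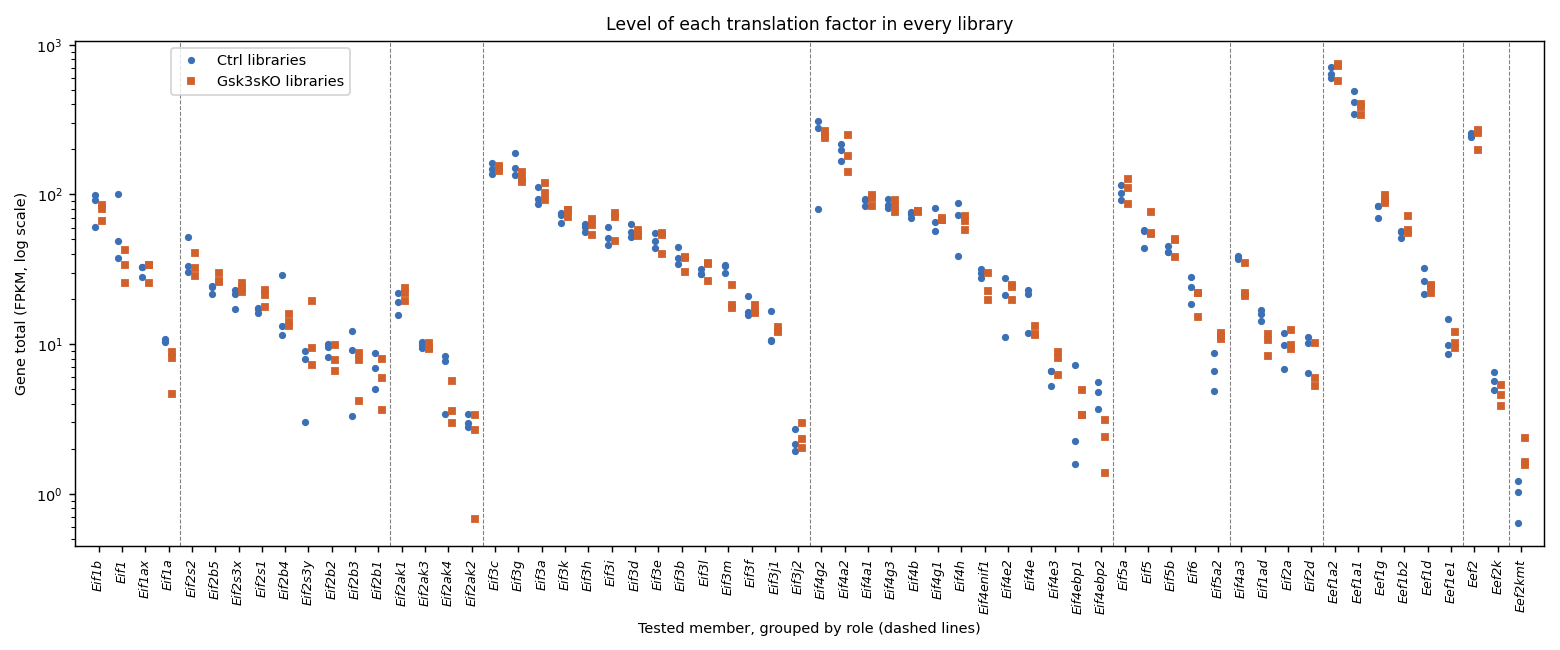
Gene total of each of the 62 tested members (horizontal axis, grouped by role with dashed lines between groups) in FPKM on a log scale (vertical axis), with 3 Ctrl libraries as circles and 3 Gsk3sKO libraries as squares. Most members have overlapping groups, Eef1a2 and Eef1a1 are the highest, and Ctrl 1 stands below the other libraries for Eif4g2 at 80.3 FPKM.

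The summed level of all members was 3624, 3894 and 4115 FPKM in Ctrl and 4013, 3915 and 3609 FPKM in Gsk3sKO. The ranges of the groups overlapped almost fully. The FPKM of all transcripts summed to 608528, 550660 and 414548 in Ctrl and to 422109, 398586 and 385795 in Gsk3sKO. The members thus made up 0.595%, 0.707% and 0.993% of all FPKM in Ctrl. In Gsk3sKO they made up 0.951%, 0.982% and 0.935%. The cause of the unequal sums was not tested. Of the 62 tested members, 5 (8.06%) were called, meaning an unadjusted limma p under 0.05 on log2(FPKM + 1), beside 6.56% of all 12874 tested genes. By direction, 4 members were lower in Gsk3sKO, beside 5.2% of all tested genes, and 1 was higher, beside 1.36%. The share of members called was thus near that of all genes. With each library rescaled to the median ratio the members gave the same counts by direction, while the share of higher genes among all calls moved from 20.7% to 34.3%. After Benjamini-Hochberg adjustment over all genes 0 members passed 0.05 by limma, and the smallest adjusted p of a member was 0.566.

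Differences were small across the group. The log2 fold change was positive for 31 members and negative for 31, with a median of -0.0088 beside -0.062 for all tested genes, and it lay within 0.5 of 0 for 51 of 62. The 95% confidence interval lay inside -1 to 1 for 47 of 62. The groups did not overlap for 11 members, or 17.7% of those tested, beside 12% of all tested genes. Of these, Eif3m, Eif1ad, Eif4a3, Eif4ebp2 and Eif1a were lower in every Gsk3sKO library, and Eif5a2, Eif2b5, Eif2s1, Eif4b, Eef1g and Eef2kmt were higher. Eif1a, Eif2s1, Eif4b and Eef1g were named after their values were seen.

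**Figure D2:**
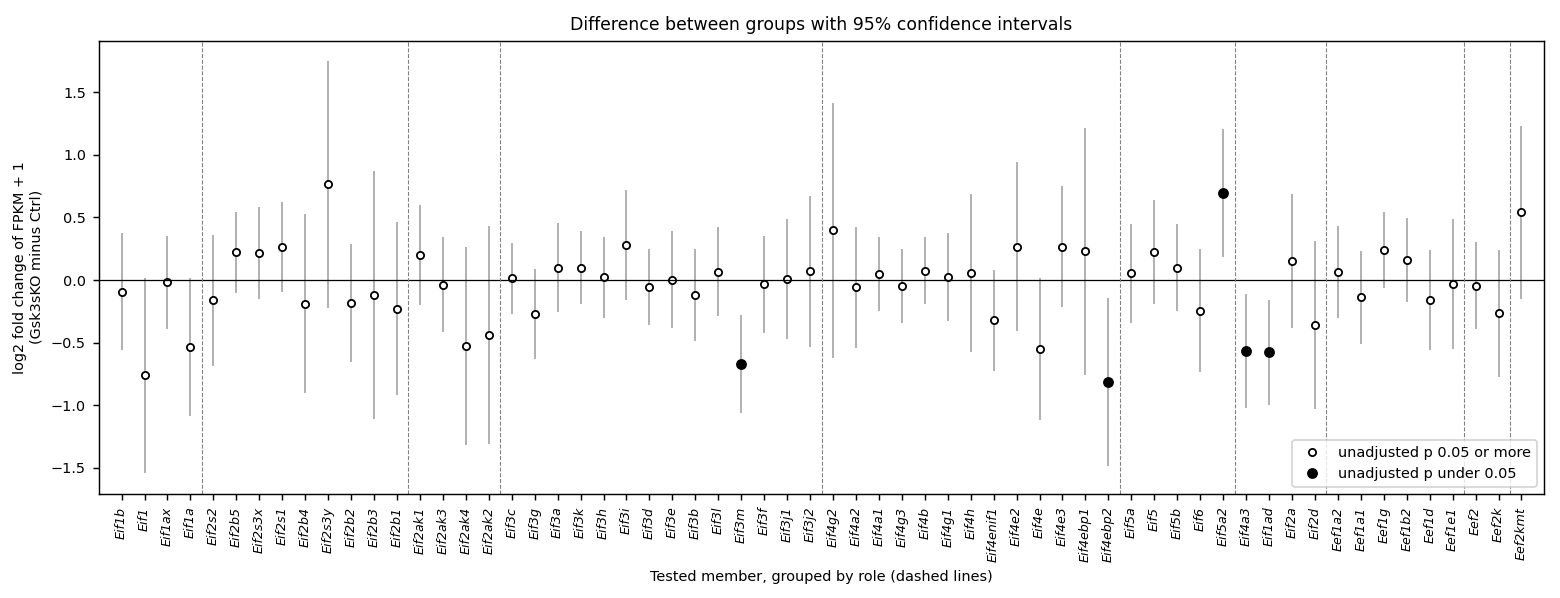
log2 fold change of FPKM + 1, Gsk3sKO minus Ctrl (vertical axis), for each tested member (horizontal axis, grouped by role), with 95% confidence intervals from limma as bars. Filled points mark the 5 members with an unadjusted p under 0.05, and the intervals of the other 57 members include 0.

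Among the factors of start codon selection, 0 of 4 were called. Eif1, whose product guards the choice of the start codon, was at 37.9, 100.02 and 48.9 FPKM in Ctrl and 42.4, 34.0 and 25.4 FPKM in Gsk3sKO. Ctrl 2 stood apart from every other library, and the groups overlapped. Its log2 fold change of -0.76 (SE 0.34, adjusted p = 0.765) did not reach an unadjusted p under 0.05. The value was -0.36 without Ctrl 2, and it was called without Ctrl 1 (-1.05) or without Gsk3sKO 1 (-0.93). In Ctrl 2 a transcript that was at or under 0.302 FPKM in all other libraries (ENSMUST00000152521) was listed at 48.5 FPKM. The main transcript of Eif1 was at 36.7 to 49.4 FPKM in Ctrl and at 25.0 to 42.1 FPKM in Gsk3sKO, with a log2 fold change of -0.42 (SE 0.23, adjusted p = 0.857). The close relative Eif1b was at 60.1, 99.2 and 91.6 FPKM in Ctrl against 84.8, 79.7 and 66.6 FPKM in Gsk3sKO, well inside the Ctrl range, with a log2 fold change of -0.092 (SE 0.20, adjusted p = 0.947).

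None of the 9 genes of eIF2 and its exchange factor was called by limma on gene totals, and the smallest adjusted p among them was 0.792. Eif2s2, the beta subunit of eIF2, was at 52.2, 33.5 and 30.2 FPKM in Ctrl and 32.4, 28.5 and 40.4 FPKM in Gsk3sKO. Eif2b5, which encodes the epsilon subunit of eIF2B that GSK3 phosphorylates, was at 24.3, 21.7 and 24.0 FPKM in Ctrl against 26.2, 26.1 and 29.8 FPKM in Gsk3sKO. Its groups did not overlap, yet its log2 fold change of 0.22 (SE 0.14, 95% confidence interval -0.10 to 0.54) was not called by limma (adjusted p = 0.814). An ordinary linear model on the same values called it. The 4 other eIF2B subunits had log2 fold changes between -0.23 for Eif2b1 and -0.12 for Eif2b3.

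Eif2b4, the delta subunit, was at 28.9 FPKM in Ctrl 1 and at 11.5 to 15.9 FPKM in the other 5 libraries. In Ctrl 1 a non-coding transcript made up 16.7 FPKM of that total. Over protein-coding transcripts alone Eif2b4 was at 11.4 ± 0.775 FPKM in Ctrl and 11.5 ± 1.41 FPKM in Gsk3sKO (SD, n = 3 each). Eif2b3, the gamma subunit, was at 3.30 FPKM in Ctrl 1 and 4.16 FPKM in Gsk3sKO 3 against 7.89 to 12.2 FPKM elsewhere, and in both low libraries its main transcript was listed at 0. Eif2b1, the alpha subunit, was at 5.03 to 8.74 FPKM in Ctrl and at 3.62 to 7.98 FPKM in Gsk3sKO, and Eif2b2, the beta subunit, at 8.24 to 9.95 and 6.62 to 9.92 FPKM.

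Eif2s3y, the copy of the eIF2 gamma subunit gene on the Y chromosome, had the highest log2 fold change of the tested members by limma on gene totals at 0.76 (SE 0.43, adjusted p = 0.792). It fell to 0.35 without Ctrl 1 and to 0.39 without Gsk3sKO 3, and with FPKM multiplied by transcript length it was 0.58, below Eif5a2 at 0.76. It was at 3.04, 9.06 and 7.93 FPKM in Ctrl and 7.28, 9.49 and 19.4 FPKM in Gsk3sKO. Its groups overlapped, with Ctrl 1 low and Gsk3sKO 3 high. In Gsk3sKO 3 the coding transcript was at 6.09 FPKM, close to 4.87 and 5.68 FPKM in the other Gsk3sKO libraries, and the rest of that total was listed on retained-intron transcripts. In Ctrl 1 the coding transcript was listed at 0, against 6.12 and 4.42 FPKM in Ctrl 2 and 3. A retained-intron transcript held 2.94 FPKM of the Ctrl 1 total.

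Of the 4 kinases that phosphorylate eIF2 under stress, 0 were called. Eif2ak1, the heme-regulated kinase and the highest of them, was at 15.6, 19.2 and 21.8 FPKM in Ctrl against 22.1, 19.3 and 23.6 FPKM in Gsk3sKO. This is a log2 fold change of 0.20 (SE 0.17, adjusted p = 0.866). Log2 fold changes of the other 3 ranged from -0.52 for Eif2ak4, the sensor of uncharged tRNA, to -0.038 for Eif2ak3, the sensor of the endoplasmic reticulum.

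Among 14 tested eIF3 subunit genes, 1 was called. Eif3m (chromosome 2, 104999656 to 105017080), which encodes a subunit of the complex, was at 33.1, 29.7 and 34.0 FPKM in Ctrl and 24.7, 18.3 and 17.3 FPKM in Gsk3sKO. All 3 Gsk3sKO libraries lay below all 3 Ctrl libraries. Its log2 fold change of -0.67 (SE 0.17, 95% confidence interval -1.06 to -0.28, adjusted p = 0.566), or 0.628-fold on the FPKM + 1 scale, was called under all 13 alternatives tried. One coding transcript, ENSMUST00000028592, held at least 94.1% of the total in every library and was lower too (log2 fold change -0.64, SE 0.19, adjusted p = 0.801). The other strand at this locus carries Ccdc73, which was at most 1.48 FPKM in any library. Over the complex, 9 of 14 subunits had a positive and 5 a negative log2 fold change, with a median of 0.011. Eif3c was at 147, 137 and 161 FPKM in Ctrl against 144, 151 and 155 FPKM in Gsk3sKO, a log2 fold change of 0.013 (95% confidence interval -0.27 to 0.30).

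**Figure D3:**
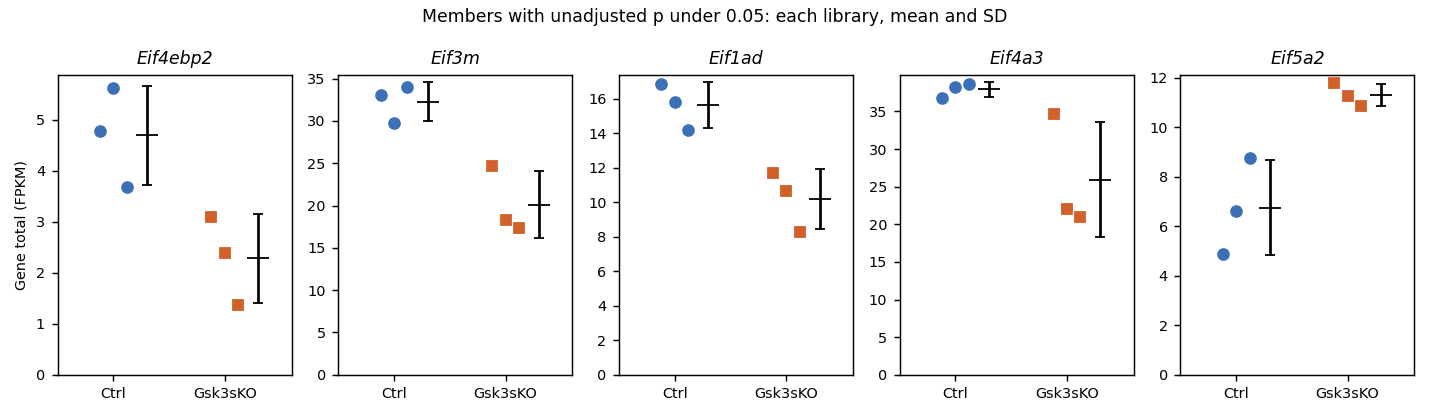
Gene totals in FPKM (vertical axes, each from 0) of the 5 members with an unadjusted p under 0.05, for 3 Ctrl libraries (circles) and 3 Gsk3sKO libraries (squares), with the mean as a line and the SD as a bar beside each group. In each of the 5 panels the groups do not overlap, and Eif5a2 alone among these 5 is higher in Gsk3sKO, at 10.9 to 11.8 FPKM against 4.90 to 8.74 FPKM.

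Of the 13 tested genes of eIF4F and the 4E-BPs, 1 was called. Eif4ebp2 (chromosome 10, 61428491 to 61452661), the main 4E-BP of the brain, was at 4.79, 5.63 and 3.68 FPKM in Ctrl and 3.10, 2.39 and 1.37 FPKM in Gsk3sKO. The groups did not overlap, and the gap between them was narrow beside the spread within each. Its log2 fold change was -0.82 (SE 0.29, 95% confidence interval -1.48 to -0.15, adjusted p = 0.692). The call was lost without Ctrl 1, Ctrl 2 or Gsk3sKO 3, where the log2 fold change was -0.80, -0.70 and -0.60. The transcript that held the whole Ctrl signal, ENSMUST00000020288, was at 1.29, 2.39 and 1.37 FPKM in Gsk3sKO (log2 fold change -1.10, SE 0.33, adjusted p = 0.807), and the remaining 1.81 FPKM of Gsk3sKO 1 was listed on a second transcript that was at 0 elsewhere. Over all libraries Eif4ebp2 had a mean of 3.49 FPKM, below Eif4ebp1 at 3.79 FPKM. Eif4ebp1 was at 7.30, 1.58 and 2.26 FPKM in Ctrl and 3.35, 3.34 and 4.93 FPKM in Gsk3sKO, and was not called.

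Eif4g2, which encodes an eIF4G relative that does not bind eIF4E, was at 80.3, 309 and 276 FPKM in Ctrl against 265, 237 and 251 FPKM in Gsk3sKO. Ctrl 1 stood far below the other 5 libraries. A log2 fold change of 0.40 (SE 0.44, adjusted p = 0.902) turned to -0.22 without Ctrl 1. The gap lay in ENSMUST00000161790, the non-coding transcript whose first exon is printed above, which was listed at 0 in Ctrl 1, at 222 and 196 FPKM in Ctrl 2 and 3 and at 179, 153 and 160 FPKM in Gsk3sKO. Over protein-coding transcripts alone Eif4g2 was at 79.3, 86.7 and 78.2 FPKM in Ctrl and 85.5, 81.9 and 90.3 FPKM in Gsk3sKO, and Ctrl 1 no longer stood apart. The snoRNA gene Gm23262, which shares 150 bases with that exon, was at 66.6, 79.2 and 72.2 FPKM in Ctrl against 66.3, 56.2 and 59.6 FPKM in Gsk3sKO. One coding transcript of Eif4g2, ENSMUST00000162415, was called higher (47.9, 43.7 and 56.0 FPKM in Ctrl against 81.6, 59.9 and 60.4 FPKM in Gsk3sKO, log2 fold change 0.44, SE 0.18, adjusted p = 0.842). A second coding transcript, ENSMUST00000161051, was at 30.5, 41.8 and 19.6 FPKM in Ctrl and 0.638, 21.995 and 27.6 FPKM in Gsk3sKO, so the sum moved less than either.

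Eif4a2, the eIF4A form abundant in brain, was at 168, 197 and 218 FPKM in Ctrl against 249, 181 and 142 FPKM in Gsk3sKO. The Gsk3sKO libraries enclosed the whole Ctrl range, and the log2 fold change was -0.059 (SE 0.21, adjusted p = 0.968). Eif4e2, which encodes an eIF4E relative with weak cap binding, was at 11.2, 27.6 and 21.4 FPKM in Ctrl and 25.0, 19.8 and 24.2 FPKM in Gsk3sKO, with Ctrl 1 the lowest. Its log2 fold change was 0.27 (SE 0.29, adjusted p = 0.901). The minor Eif4e2 transcript ENSMUST00000113235 was at 4.87, 3.19 and 3.09 FPKM in Ctrl against 0.395, 0.229 and 1.75 FPKM in Gsk3sKO, without overlap (log2 fold change -1.47, SE 0.45, adjusted p = 0.809).

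Among the 5 genes of eIF5 and eIF6, 1 was called, and it was the single member called higher. Eif5a2 (chromosome 3, 28781276 to 28798846) is the less abundant of the eIF5A genes, whose hypusine-bearing product helps ribosomes past stalling sequences. It was at 4.90, 6.61 and 8.74 FPKM in Ctrl and 11.8, 11.3 and 10.9 FPKM in Gsk3sKO. Every Gsk3sKO library lay above every Ctrl library, and the Gsk3sKO libraries were closer together. A log2 fold change of 0.70 (SE 0.22, 95% confidence interval 0.19 to 1.21, adjusted p = 0.688) was called under all 13 alternatives tried. Eif5a, whose mean level was 11.7 times that of Eif5a2, was at 115, 92.0 and 102 FPKM in Ctrl against 110, 127 and 86.0 FPKM in Gsk3sKO, with a log2 fold change of 0.053 (SE 0.17, adjusted p = 0.963).

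The 4 remaining tested Eif genes, grouped as other, held 2 calls, Eif4a3 and Eif1ad. Eif4a3 (chromosome 11, 119288363 to 119300089) encodes the helicase at the core of the exon junction complex, which marks spliced mRNA. Its total was at 36.8, 38.3 and 38.7 FPKM in Ctrl and 34.7, 22.1 and 20.98 FPKM in Gsk3sKO. Gsk3sKO 1 was close to the Ctrl libraries and the other 2 were well below them. Its log2 fold change was -0.57 (SE 0.20, 95% confidence interval -1.02 to -0.11, adjusted p = 0.688). The call was lost without Ctrl 2, Ctrl 3, Gsk3sKO 2 or Gsk3sKO 3, where the log2 fold change was -0.56, -0.55, -0.47 and -0.44.

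The difference in Eif4a3 lay in the short transcript ENSMUST00000106253, which lacks the exon 4 printed above. That transcript was at 20.7, 20.3 and 23.7 FPKM in Ctrl, at 21.4 FPKM in Gsk3sKO 1 and listed at 0 in Gsk3sKO 2 and 3 (log2 fold change -3.00, SE 1.21, adjusted p = 0.842). The full-length transcript ENSMUST00000026667 was at 16.1, 17.7 and 14.8 FPKM in Ctrl against 13.2, 21.9 and 20.4 FPKM in Gsk3sKO (log2 fold change 0.15, SE 0.23, adjusted p = 0.932). It was thus highest in the 2 libraries where the short one was listed at 0. When FPKM was multiplied by transcript length before summing, so that short transcripts weigh less, the log2 fold change of Eif4a3 was -0.35 (SE 0.16) and was not called. On that scale, chosen after seeing the data, 4 of 62 members were called, beside 5.89% of all tested genes. How reads are divided between transcripts of 1 gene is an estimate of the assembler.

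**Figure D4:**
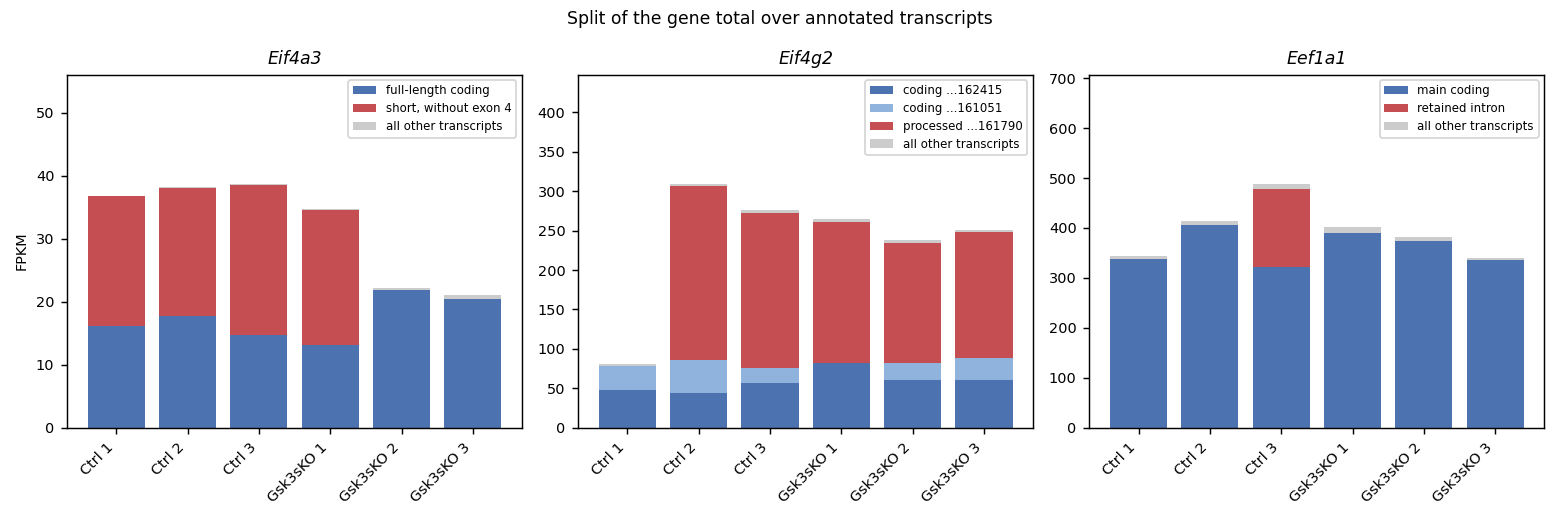
FPKM (vertical axes, from 0) of Eif4a3, Eif4g2 and Eef1a1 in each of the 6 libraries (horizontal axes), stacked by annotated transcript. The short Eif4a3 transcript is listed at 0 in Gsk3sKO 2 and 3, the non-coding Eif4g2 transcript is listed at 0 in Ctrl 1, and a retained-intron transcript of Eef1a1 is present at 155 FPKM in Ctrl 3.

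Eif1ad (chromosome 19, 5366741 to 5371526), which encodes a protein with a domain like that of eIF1A, was at 16.9, 15.8 and 14.2 FPKM in Ctrl and 11.7, 10.7 and 8.28 FPKM in Gsk3sKO. The groups did not overlap. A log2 fold change of -0.58 (SE 0.18, 95% confidence interval -0.999 to -0.157, adjusted p = 0.684) was called under all 13 alternatives tried. Eif1ad starts inside the stretch covered by Banf1, a chromatin-binding factor gene on the other strand. Banf1 was at 20.1, 15.6 and 13.0 FPKM in Ctrl against 12.6, 7.40 and 9.65 FPKM in Gsk3sKO, and was called lower as well with a log2 fold change of -0.67. The sources used here do not state whether strand was used in assigning reads, and the part of Banf1 reads in the Eif1ad value was not tested. Over the group, 20 of 65 members are overlapped by an annotated gene on the other strand.

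None of the 6 eEF1 genes, the 2 genes of eEF2 and its kinase or the eEF2 methyltransferase gene was called by limma on gene totals. The smallest adjusted p of any Eef gene by limma was 0.792. Eef1a2 was at 602, 635 and 715 FPKM in Ctrl and 726, 747 and 577 FPKM in Gsk3sKO. Its log2 fold change of 0.065 had a 95% confidence interval of -0.30 to 0.43, and the groups overlapped. Eef1a1 was at 344, 414 and 488 FPKM in Ctrl against 401, 381 and 341 FPKM in Gsk3sKO (log2 fold change -0.14, SE 0.16, adjusted p = 0.907). In Ctrl 3 a retained-intron transcript accounted for 155 FPKM of that total and was at or under 0.059 FPKM in the other 5 libraries. Without it and the other non-coding transcripts Eef1a1 was at 343, 412 and 331 FPKM in Ctrl and 400.3, 380 and 339 FPKM in Gsk3sKO.

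Eef2 was at 240.4, 245 and 258 FPKM in Ctrl against 258, 270.1 and 198 FPKM in Gsk3sKO, and Gsk3sKO 3 was the lowest library. The difference was -0.044 on the log2 scale with a 95% confidence interval of -0.39 to 0.30. Eef2kmt, whose product methylates eEF2, was near the filter at 0.639, 1.03 and 1.22 FPKM in Ctrl and 1.62, 1.57 and 2.37 FPKM in Gsk3sKO. All Gsk3sKO libraries were above all Ctrl libraries, with a log2 fold change of 0.54 (SE 0.30, adjusted p = 0.792), which an ordinary linear model called. Over protein-coding transcripts alone the groups overlapped, at 0.639, 0.336 and 0.608 FPKM in Ctrl and 0.826, 0.363 and 1.48 FPKM in Gsk3sKO. Nearly all of the rest was listed on a retained-intron transcript.

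At the level of transcripts, 8 of 127 tested member transcripts (6.3%) were called, beside 5.56% of all 21584 tested transcripts. In Gsk3sKO 6 of them were lower and 2 higher, and 0 passed an adjusted p of 0.05 by limma, with a smallest adjusted p of 0.801. They comprised the transcripts of Eif3m, Eif4ebp2, Eif4a3, Eif4e2 and Eif4g2 given above and the single transcripts listed for Eif1ad and Eif5a2. The last was a minor coding transcript of Eif3k, an eIF3 subunit gene. This transcript (ENSMUST00000208616) was at 2.84, 6.998 and 9.59 FPKM in Ctrl against 3.21, 0.441 and 1.32 FPKM in Gsk3sKO, overlapping through Ctrl 1 and Gsk3sKO 1 (log2 fold change -1.51, SE 0.57, adjusted p = 0.842). The Eif3k total was at 64.3 to 74.9 FPKM in Ctrl and at 70.2 to 78.7 FPKM in Gsk3sKO. Coding transcripts held 87.5% to 97.1% of the summed FPKM of all members in each library, and retained-intron transcripts 0.82% to 5.46%.

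Several factors exist as paralogs, and the share of 1 paralog in its group does not depend on how a library was scaled. Of 10 shares, 4 did not overlap between groups. All 4 were at p = 0.1 by the exact permutation test (2-sided, adjusted p = 0.25 over the 10). That is the smallest p that 3 libraries against 3 allow, and a share without overlap always reaches it. Among all tested gene totals 12% did not overlap, and no such figure was computed for shares of paralogs over all genes. The shares are made from the gene totals given above and are not separate evidence. The share of Eif5a2 in eIF5A was 6.22% ± 1.95 in Ctrl and 9.66% ± 1.55 in Gsk3sKO (SD, n = 3 each). The share of Eif1b in the sum of Eif1 and Eif1b was 58.8% ± 8.01 and 69.7% ± 2.87, that of Eif1ax in eIF1A 74.7% ± 1.37 and 81.0% ± 6.18, and that of Eif2ak1 among the eIF2 kinases 49.1% ± 2.51 and 57.9% ± 3.78. The difference in the share of Eif1ax was 6.30 percentage points and 2.87 without Gsk3sKO 3, and that of Eif1b 10.9 percentage points and 6.44 without Ctrl 2. Beside these shares, the level of Eif1ax itself was 31.2 ± 2.75 FPKM in Ctrl and 31.0 ± 4.75 FPKM in Gsk3sKO, and that of Eif1a, the smaller member of the pair, 10.6 ± 0.235 and 7.21 ± 2.23 FPKM (SD, n = 3 each).

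In the most abundant pair the groups overlapped. Eef1a2 made up 63.6%, 60.5% and 59.4% of eEF1A FPKM in Ctrl and 64.4%, 66.2% and 62.9% in Gsk3sKO (exact permutation p = 0.2). Eif4a2 made up 66.9% to 70.0% of the eIF4A pair in Ctrl and 58.8% to 75.0% in Gsk3sKO (exact permutation p = 0.7). Within the 4E-BPs, Eif4ebp1 made up 38.2% ± 16.5 in Ctrl and 62.8% ± 13.7 in Gsk3sKO (SD, n = 3 each, exact permutation p = 0.2), with a summed 4E-BP level of 5.73 to 13.3 FPKM per library. Reads of near-identical copies such as Eif2s3x and Eif2s3y can be divided between them by the estimate, which touches these shares.

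**Figure D5:**
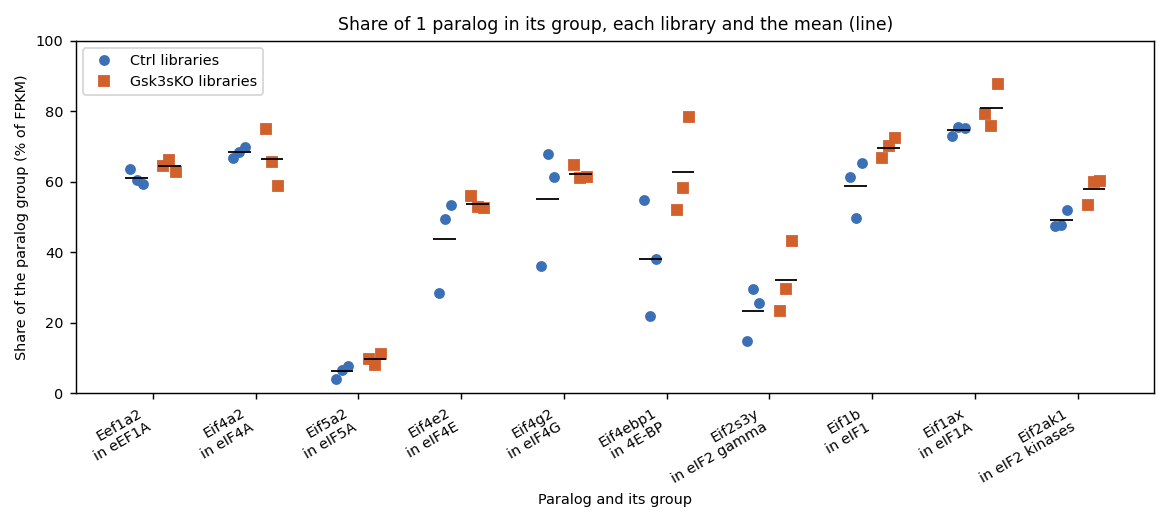
Share of 1 paralog in the summed FPKM of its paralog group in percent (vertical axis, 0 to 100) for 10 groups (horizontal axis), with 3 Ctrl libraries as circles, 3 Gsk3sKO libraries as squares and group means as lines. The groups do not overlap for Eif5a2, Eif1b, Eif1ax and Eif2ak1, and Ctrl 1 lies below the other libraries for Eif4e2 and Eif4g2. The Eif4g2 share includes its non-coding transcript, which was listed at 0 in Ctrl 1.

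A minority of members host small RNA genes. Of the 62 tested members, 9 (14.5%) contain at least 1 annotated snoRNA gene on the same strand, beside 1.92% of 11320 tested protein-coding genes, and Eif4a2 and Eif4a1 hold several each. snoRNAs guide the modification of ribosomal RNA and are released from introns of their host genes. Of 18 such snoRNA loci in members, 12 were tested and 3 (25%) called, beside 42.8% of all 229 tested snoRNA genes. The 3 are named after their values were seen. Gm25835, inside Eif4a1, was at 104, 118 and 58.8 FPKM in Ctrl and 35.7, 17.1 and 29.4 FPKM in Gsk3sKO (log2 fold change -1.73). Gm26447 and Gm24201, both inside Eif4a2, had low levels of at most 4.30 and 3.15 FPKM in any library, with log2 fold changes of -1.54 and 1.33. Eif4a1 itself was at 83.3 to 93.5 FPKM in Ctrl and at 83.1 to 99.4 FPKM in Gsk3sKO.

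Promoters were compared over the 100 bases before each RefSeq transcript start on GRCm38.p6, on both strands, for 66 promoters of 51 members. The GC box letters GGGCGG were present in 51.5% of member promoters, beside 45.5% of 11484 promoters of tested genes and 24.7% of all 32851 promoters. The ETS core letters CGGAAG, which can overlap the GC box, were present in 25.8%, 15.4% and 8.19%. The letters TATAAA were present in 3.03%, 2.43% and 5.56%, and CCAAT in 16.7%, 21.2% and 18.9%. These are matches of letters, not measured binding.

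Other genes of translation and its control were taken as a list of 48, of which 47 were tested. In this list 3 (6.38%) were called, all lower in Gsk3sKO, beside 6.56% of all tested genes called and 5.2% called lower. Dhps encodes the enzyme that starts the hypusine modification of eIF5A, and was at 19.0, 20.8 and 23.3 FPKM in Ctrl against 15.1, 18.0 and 9.37 FPKM in Gsk3sKO (log2 fold change -0.58, SE 0.24, adjusted p = 0.750). Its groups did not overlap. Gfm2, a recycling factor of mitochondrial ribosomes, was at 12.9, 6.06 and 6.36 FPKM in Ctrl and 4.91, 2.87 and 3.27 FPKM in Gsk3sKO (log2 fold change -0.96, SE 0.32, adjusted p = 0.688). Mtif3, a mitochondrial initiation factor, was at 20.2, 20.9 and 17.0 FPKM in Ctrl against 15.6, 4.73 and 10.9 FPKM in Gsk3sKO (log2 fold change -0.96, SE 0.35, adjusted p = 0.708).

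The targets of the integrated stress response, which are translated or transcribed when eIF2 is phosphorylated, gave 0 calls among 5 tested. Atf4 was at 60.5, 68.6 and 42.6 FPKM in Ctrl and 56.6, 58.1 and 50.1 FPKM in Gsk3sKO, a log2 fold change of -0.035 (SE 0.19). None of 6 release and recycling factors, 10 genes of poly(A) binding and bridging or 10 genes of kinases and phosphatase subunits was called by limma, with smallest adjusted p-values of 0.861, 0.786 and 0.767.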

How the data were processed

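RNA bound to tagged ribosomes was sequenced in 6 libraries, which were grouped by the submitters' labels. The authors deposited FPKM values per transcript for 115220 transcripts, made with HISAT2 2.1.0, SAMtools 1.9 and StringTie 1.3.4d on GRCm38 according to the submitters' processing notes; the sources used here give no settings for them. The authors also deposited a fold, a p-value and a q-value for each transcript, which were not used.

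FPKM was summed by gene identifier, and totals and transcripts with a mean of at least 1 FPKM were fitted with limma 3.58.1 in R 4.3.3 (lmFit, eBayes with a trend) on log2(FPKM + 1), 2-sided, adjusted by the Benjamini-Hochberg method over all features. Fold changes on this scale understate those of low genes. A feature was called at an unadjusted p under 0.05, the level the methods of the study state for comparisons of 2 groups; for differential transcripts they state none. The fit was tested on simulated data, with changes placed on features above the lowest levels. A log2 change of 0.5 was called for 46% of such genes and 34% of such transcripts, and a change of 1 for 91% and 63%. Without a change 4.58% of genes and 4.98% of transcripts were called. Shares were compared with exact permutation tests.

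Lengths, coordinates and transcript classes came from GENCODE M21, where 983 transcripts had no match. Promoters came from RefSeq (GRCm38.p6). Named genes are the called members, the 6 most abundant, the most abundant of each role, the 3 highest and 3 lowest changes, the eIF2B subunits and members with a called transcript. The members and lists were chosen with earlier results of these data known. Depth was estimated from transcripts of at least 800 bases. Python 3.11.15, pandas 2.3.3, numpy 2.4.6 and scipy 1.17.1 were used.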

Additional observations from a re-analysis of the deposited data

How the results depend on the processing

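The results were recomputed with a pseudocount of 0.1, no filter on low values, a filter at 5 FPKM, rescaling of each library to the median ratio, an ordinary linear model, a replicate block and each library left out in turn, and, chosen after seeing the data, with FPKM multiplied by transcript length (5.89% of all genes called). Eif3m, Eif1ad and Eif5a2 were called under all 13 alternatives, Eif4ebp2 under 9 of 12 and Eif4a3 under 7 of 13. The number of members called ranged from 3 without Ctrl 2 to 8 without Gsk3sKO 1, the number of member transcripts from 4 without Gsk3sKO 2 to 14 without Gsk3sKO 1, and the number of listed pathway genes from 1 without Ctrl 2 to 5 without Gsk3sKO 1. Apart from FPKM multiplied by length, the share of all features called under each alternative is not given here. Shifts in these counts therefore cannot be read as particular to the members. The filter at 5 FPKM left 4 member transcripts called, with fewer transcripts tested, and the ordinary linear model 0 pathway genes, for which the cause was not tested. Rescaling moved the median log2 fold change of members to 0.047, against -0.011 for all genes, and that of Eef2 to 0.013.

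Labels give both groups replicate numbers 1 to 3, but the deviations of same-numbered libraries correlated at -0.027, -0.011 and -0.081, so the numbers were not taken as pairs. With a replicate block 7 members were called, with Eif1 and Eif2s3y added, and the share of all genes called with that block is not given here. The ordinary linear model called Eif2b5 and Eef2kmt in addition and did not call Eif4a3.

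Leaving out 1 library at a time turned the direction of uncalled members, over these ranges of log2 fold change: Eef1a2 from -0.0041 to 0.18, Eef2 from -0.13 to 0.092, Eif4g2 from -0.22 to 0.75, Eif4a2 from -0.27 to 0.13, Eif3c from -0.044 to 0.074, Eif5a from -0.075 to 0.21, Eif1b from -0.31 to 0.046, Eif2s2 from -0.31 to 0.070, Eif2b4 from -0.43 to 0.20, Eif2b3 from -0.60 to 0.22, Eif2b1 from -0.45 to 0.028 and Eif4e2 from -0.083 to 0.53. The direction of 2 paralog shares turned as well, with Eif4a2 from -6.21 to 1.87 percentage points and Eif4g2 from -2.24 to 13.6 percentage points. The causes were not tested.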
